A study of Bos taurus with 18 samples.

Results

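Wnt ligands and their secreted antagonists were followed through 18 libraries of bovine mesenchymal stem cells (MSCs). The 10 genes were chosen by symbol: the ligands WNT5A, WNT5B and WNT2B, the Frizzled-related proteins SFRP1, SFRP2, SFRP4 and FRZB, and the Dickkopf proteins DKK1, DKK2 and DKK3. All 10 symbols were present among the 16989 genes counted. Poly-adenylated RNA was sequenced from 17 clonal populations, named A to Q, and from 1 unsorted heterogeneous population of the same donor. The cells came from the bone marrow of juvenile cattle and were harvested at passage 1 from monolayer culture in basal medium, a serum-containing medium without chondrogenic induction. The study asked which features of undifferentiated cells might mark clones with a high capacity to form cartilage. Each clone grew from a single cell and was sequenced once, so differences between clones include the error of a single library, and the order of neighbouring clones could not be tested.

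Wnt proteins are secreted, lipid-modified signals that bind Frizzled receptors with the co-receptors LRP5 and LRP6 to stabilize β-catenin, or act through ROR and RYK receptors without β-catenin. Secreted Frizzled-related proteins bind the ligands outside the cell, whereas Dickkopf proteins such as DKK1 bind LRP5 and LRP6. In marrow stromal cells, β-catenin signalling is known to favour bone formation, and FRZB was first known as a cartilage protein.

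Reads on genes ranged from 11484812 to 18458157 per clone, and 16092501 were counted in the heterogeneous population. Levels are given as CPM, reads scaled to the size of each library, with the TMM correction for differences in library composition. Such values are not per length, so levels were compared between libraries and not between genes. The MSC markers summed to 3212 to 5978 CPM in the clones and 3701 CPM in the heterogeneous population, although LEPR reached at most 2 reads and the median clone had 1 read of VCAM1. Clones C and O were the most alike pair (chi-square per degree of freedom 4.73, against 21.4 for the next closest pair, E and F). Their counts differed by more than counting noise, but 2 preparations of 1 clone could do so too. The value therefore cannot show whether they are independent, and they were kept as 2 clones, as labelled. For some genes the counts themselves were low or empty: PGK1 had 0 reads in every library, GAPDH had 1 to 12 in the clones, and AXIN2, a direct target of β-catenin, had 0 throughout. A count of 0 was therefore not read as absence of a transcript.

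The 3 ligands were detected in every clone. WNT5A, which signals mainly without β-catenin, ran from 3.83 CPM in clone N through a median of 15.9 CPM to 75.9 CPM in clone E. The next clone, P, reached 38.02 CPM, so clone E stood apart at the top, whereas the low end was crowded, with clones N and L at 3.83 and 4.12 CPM. WNT5B, a close relative active in cartilage, ran from 4.80 CPM in clone Q through 29.9 CPM to 66.6 CPM in clone O. Clone Q lay alone at the bottom, since the next clone, P, was at 12.8 CPM, and clone C, at 62.7 CPM, lay beside clone O at the top. WNT2B, which can signal through β-catenin, was read far less often, with 4 to 90 reads per clone. Its level ran from 0.362 CPM in clone A through 2.11 CPM to 6.50 CPM in clone K, where clone D followed at 6.32 CPM.

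Among the Frizzled-related antagonists, SFRP4 covered the widest range of CPM. It ran from 1.60 CPM in clone G through 26.9 CPM to 178 CPM in clone H, a range of 111-fold, and the second highest clone, L, had 63.3 CPM. Besides clone G, a further 4 clones lay under 7 CPM, at 1.89 (E), 2.85 (D), 3.32 (F) and 6.97 CPM (A), and after a gap of 1.35 log2 units the other 12 clones began at 18.1 CPM in clone B. SFRP1 varied less, by 11.9-fold, with 4.09 CPM in clone N, a median of 20.4 CPM and 48.5 CPM in clone M. SFRP2 had 0 reads in clone A, where 3 reads would be 0.271 CPM, and 1 read in clone M. Its median was 1.62 CPM and its highest value was 13.1 CPM, in clone H, so clone H held the highest level of both SFRP2 and SFRP4. FRZB was close to undetected. It had 0 reads in 10 of 17 clones and 30 reads over all clones, of which 10 came from clone N. Only 4 clones had more than 3 reads, namely N, K, O and P, and FRZB entered the tests through clone N alone.

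DKK1 and DKK3 also split the clones. DKK1, an inhibitor that removes LRP5 and LRP6 from signalling, ran from 0.291 CPM in clone E through 1.92 CPM to 28.6 CPM in clone O, a 98.4-fold range. Its low end was 4 reads in clone E, so the size of this range carries large counting error. Clones O, C and G, at 28.6, 25.7 and 20.6 CPM, were separated by a gap of 1.36 log2 units from the other 14 clones, of which the highest was clone I at 7.89 CPM. DKK3, a divergent Dickkopf protein whose part in Wnt signalling is less clear, was abundant throughout, at 99.0 CPM in clone G, 423 CPM at the median and 724 CPM in clone N. Clones G, O, I, C, L and H had 99.0, 108, 124, 130, 188 and 193 CPM, and after a gap of 1.05 log2 units the other 11 began at 400 CPM in clone B. The 3 clones highest in DKK1 were thus among the 6 lowest in DKK3. DKK2, which can act as an inhibitor or a weak activator of LRP6, showed no such gap. It ran from 2.005 CPM in clone M through 8.03 CPM to 57.1 CPM in clone N, with clones P and Q next at 45.2 and 29.2 CPM.

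Read by clone, the extremes were unevenly shared. Clone N held 5 of the 20 lowest or highest levels of the members. These were the lowest WNT5A and SFRP1 and the highest FRZB, DKK2 and DKK3, while the lowest FRZB, 0 reads, was shared by 10 clones. Clone N was also in the most unlike pair of libraries, with M (chi-square per degree of freedom 340). How often each clone was extreme over all genes was not counted, so whether the count is particular to these genes is not known. Clone O held the highest WNT5B and DKK1, clone H the highest SFRP2 and SFRP4, and clone G the lowest SFRP4 and DKK3. Clone E joined the highest WNT5A to the lowest DKK1, clone M the highest SFRP1 to the lowest DKK2, and clone A the lowest WNT2B and SFRP2. The closest pair of libraries, C and O, had similar levels, at 7.26 and 6.63 CPM of WNT5A, 24.3 and 19.8 CPM of SFRP4, 17.6 and 20.7 CPM of DKK2, and 130 and 108 CPM of DKK3.

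**Figure D1:**
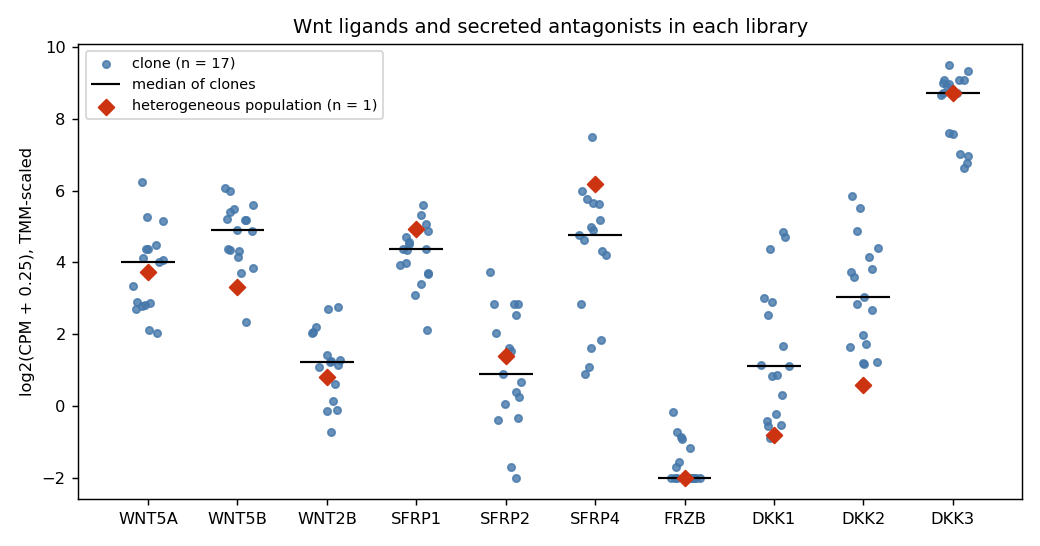
Level of each gene in every library, as log2(CPM + 0.25) after TMM scaling on the vertical axis. Blue points are the 17 clones, black bars their medians and red diamonds the single heterogeneous population; the 6 clones low in DKK3 lie apart from the other 11, and the diamond for DKK2 lies under every clone.

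The spread between clones was wide for these genes. On the log2(CPM + 0.25) scale the SD over 17 clones was 1.91 for DKK1, 1.90 for SFRP4, 1.65 for SFRP2, 1.51 for DKK2, 1.18 for WNT5A, 0.9998 for WNT2B, 0.99 for DKK3, 0.94 for WNT5B, 0.86 for SFRP1 and 0.60 for FRZB. The median gene of the 11761 that passed the filter on low counts had an SD of 0.33, and all 10 members lay above it. DKK1 and SFRP4 were more variable than 99.7% of those genes, and FRZB than 78.8%. In the fitted model, the coefficient of variation between clones beyond counting error had a median of 84.4% over the 10 members and 24.3% over all genes. By that measure FRZB was the highest member, at 157% and above 99.4% of genes, whereas its SD was the lowest. These values are a description. The filter keeps a gene that is high in a single clone, which favours spread in genes as low as FRZB.

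**Figure D2:**
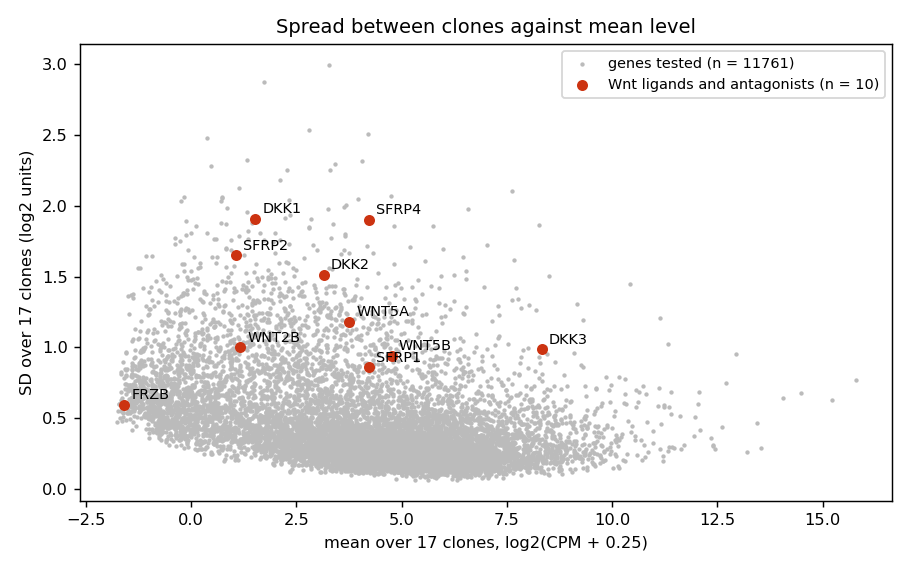
SD over the 17 clones (vertical axis, log2 units) against mean level (horizontal axis, log2(CPM + 0.25)) for the 11761 genes tested in grey and the 10 Wnt genes in red. Every red point lies above the median SD of 0.33, and DKK1, SFRP4 and SFRP2 lie near the top of the cloud at their levels.

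The heterogeneous population was next set against the 17 clones, to ask whether the uncloned culture held the same levels. It lay within the range of the clones for 8 of the 10 genes, below every clone for DKK2, and at 0 reads for FRZB as in 10 clones. DKK2 had 19 reads, or 1.25 CPM, against at least 2.005 CPM in the clones. Of all 11878 genes tested, 8.6% lay below every clone in that library and 9.56% above every clone. DKK1 had 5 reads, or 0.328 CPM, and clone E alone was lower, at 4 reads, a difference within counting error. WNT5B was at 9.78 CPM, above clone Q only, and SFRP4 was at 72.7 CPM, below clone H only. SFRP1, at 30.3 CPM, was in the upper part of the range, with 3 clones higher, and WNT2B, at 1.51 CPM, had 12 clones higher. The remaining levels lay nearer the middle, at 13.1 CPM for WNT5A, 2.36 CPM for SFRP2 and 415 CPM for DKK3.

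None of these differences passed the test against the spread between clones. By edgeR's quasi-likelihood test, 145 genes (1.22%) passed an adjusted p of 0.05, 144 of them (1.21%) higher and 1 (0.00842%) lower in the heterogeneous population, and 0 of the 10 members did. At an unadjusted p under 0.05 there were 0 members by edgeR, 3 by DESeq2 and 0 by limma, where 7.68%, 9.24% and 8.19% of all genes tested were, and none passed after adjustment by any of these tools. The log2 difference, heterogeneous minus clones, was −3.54 ± 2.06 (SE) for DKK2 (adjusted p = 0.694 by edgeR), −4.25 ± 2.95 for DKK1 (adjusted p = 0.726 by edgeR) and −1.70 ± 0.98 for WNT5B (adjusted p = 0.690 by edgeR). It was 1.04 ± 1.42 for SFRP4, 0.51 ± 0.74 for SFRP1 and 0.10 ± 0.86 for DKK3. These errors span differences of several fold. With a single heterogeneous library, that library was assumed to vary as the clones do.

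The heterogeneous population also carried transcripts of another cell type. Of 20 macrophage markers, 18 were higher there than in every clone, while the remaining pair, ITGAM and CYBB, was at 0 reads throughout. Their summed level was 200 CPM, against 3.52 to 9.77 CPM in the clones, with CD163 at 43.8 CPM and CD68 at 40.6 CPM. The 9 endothelial markers summed to 13.1 CPM, against 1.69 to 8.49 CPM in the clones, of which VWF supplied 11.2 CPM. VWF was the only 1 of the 9 above every clone, PECAM1 was at 0.263 CPM against a clone median of 0.733 CPM, and CDH5, CLDN5 and ESAM had 0 reads everywhere. The part of these cells in the DKK2, DKK1 and WNT5B levels was not tested. In bulk RNA, fewer cells that express a gene and less RNA per cell cannot be told apart.

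Other genes of the pathway were taken from lists of ligands, antagonists, receptors, secretion factors, intracellular components and targets. Of 76 such genes tested in the heterogeneous population, 0 passed by edgeR, DESeq2 or limma, with 6, 7 and 6 at an unadjusted p under 0.05, beside the shares of all genes just given. Of the 76, 7 lay above every clone and 4 below. The median log2 difference was −0.62 over the 10 members and −0.04 over all genes. The ligands with most reads, WNT10B and WNT9A, were at 20.6 and 26.3 CPM, within the clones' ranges of 6.75 to 45.9 and 3.88 to 53.5 CPM. KREMEN1, a co-receptor of Dickkopf proteins, was at 40.5 CPM (clones 19.8 to 40.0 CPM) and DKKL1 at 11.8 CPM (5.06 to 26.9 CPM). Among receptors, PTK7 was at 548 CPM (309 to 1196 CPM) and FZD1 at 639 CPM, above the 181 to 503 CPM of the clones (1.03 ± 0.44, adjusted p = 0.578 by edgeR). Secretion of Wnt needs WLS, at 143 CPM (87.9 to 215 CPM), and TMED2 was at 62.8 CPM (72.0 to 113 CPM). CTNNB1, which encodes β-catenin, was at 795 CPM (536 to 1228 CPM) and RHOA at 455 CPM (458 to 803 CPM). LRP5, the co-receptor, named after its value was seen, was at 44.5 CPM, above the 3.57 to 32.5 CPM of the clones (1.71 ± 0.64, adjusted p = 0.478 by edgeR). Of the targets, CCND1 was at 61.7 CPM, under the 124 to 569 CPM of the clones (−1.96 ± 0.68, adjusted p = 0.388 by edgeR), and MYC at 62.3 CPM (37.3 to 79.3 CPM).

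Each clone was then compared with the other 16. Clone N differed in 86 of 11761 genes (0.731%; 0.646% higher and 0.085% lower) and clone M in 4 (0.034%), whereas no gene passed in the other 15 clones, and 0 of the 170 tests of a member in a clone passed by edgeR. Of these 170, 8 had an unadjusted p under 0.05, where 4.4% of all such tests over genes and clones did. They were SFRP1, DKK2 and FRZB in clone N, WNT5B in Q, WNT5A in E, SFRP4 in H, and WNT2B and SFRP2 in A. FRZB was kept for testing by its reads in clone N, so its value there is no support. In clone N, SFRP1 was lower by a log2 difference of −2.41 ± 0.84 (adjusted p = 0.172 by edgeR) and DKK2 differed by 2.303 ± 1.03 (adjusted p = 0.278 by edgeR). The member called by DESeq2 was SFRP1 in clone N, at a log2 difference of −2.43. Of the pathway genes, edgeR called TMED5 in clone N (1.04 ± 0.23). TMED5 is a cargo receptor that carries Wnt proteins through the early secretory path.

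To ask which members moved together over the clones, each gene was fitted on the log2 level of each member in turn, with p adjusted over all genes. The share of all genes that passed differed greatly between the members used as covariate. It was 32.8% for DKK3, 31.8% for DKK1, 22% for WNT5B, 20.5% for DKK2, 2.64% for FRZB, 0.468% for WNT5A, 0.136% for SFRP1, 0.017% for WNT2B, and 0% for SFRP2 and SFRP4. A call with DKK1 or DKK3 was therefore common in the transcriptome, and counts of members are read against these shares. Of the 45 pairs of members, 3 passed in both directions: DKK1 with DKK3, DKK1 with WNT5B, and DKK2 with FRZB. The last of these is a description only, since FRZB was kept for testing through clone N, which is also the highest in DKK2.

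DKK3 was lower where DKK1 was higher. Its log2 level fell by 0.39 ± 0.09 (SE) per log2 unit of DKK1 (adjusted p = 0.00328 by edgeR), and DKK1 fell by 1.49 ± 0.27 per unit of DKK3 (adjusted p = 0.000639 by edgeR). With DKK1 as covariate, 2 of 9 other members passed, DKK3 lower and WNT5B higher. Because both genes split the clones into separate sets, no r is given over all 17. Within the 6 clones low in DKK3, r between DKK1 and DKK3 was −0.85 (rho −0.71), and within the other 11 it was 0.12 (rho 0.15). Within the 14 clones low in DKK1, r was −0.55 (rho −0.35). The relation was thus not seen inside the larger DKK3 set. That set was cut on DKK3 itself, which ran only from 400 to 724 CPM there. A narrower range lowers r, so these values cannot decide whether the relation fails in that set.

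DKK1 was higher where WNT5B was higher, by 1.504 ± 0.35 per log2 unit (adjusted p = 0.00746 by edgeR), with the reverse slope at 0.24 ± 0.08 (adjusted p = 0.0276 by edgeR). It was 1 of 9 members to pass with WNT5B. Clones C and O, the most alike pair, are the top clones of both genes. Without clone C the larger adjusted p of the 2 directions was 0.0790, without clone O it was 0.0956, and with C and O summed into 1 library it was 0.0838, all by edgeR. Within the 14 clones low in DKK1, r with WNT5B was 0.26 (rho 0.20). DKK3 and WNT5B were opposed in 1 direction of fitting only (WNT5B on DKK3 −0.51 ± 0.16, adjusted p = 0.0209, and DKK3 on WNT5B −0.57 ± 0.21, adjusted p = 0.0576, by edgeR), and with DKK3 as covariate DKK1 and WNT5B were the 2 of 9 members that passed.

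DKK2 and FRZB were highest in the same clone, N. The slope was 1.62 ± 0.40 per log2 unit for DKK2 on FRZB and 0.95 ± 0.27 for FRZB on DKK2, and over the 17 clones r was 0.65 and rho 0.55, with r of 0.63 without clones N and K, the 2 farthest from the median in FRZB. FRZB rests on 30 reads and could not be fitted without clone N, so no p is given for these slopes.

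The other pairs did not pass in both directions over all 17 clones. WNT5A and WNT5B, the closest relatives among the ligands, had r of 0.05 over the clones (slope of WNT5B on WNT5A −0.04 ± 0.17, adjusted p = 0.925 by edgeR). WNT2B had r of −0.04 with WNT5A and 0.43 with WNT5B. WNT5A and DKK2 had r of −0.55 and rho of −0.60, with adjusted p of 0.341 for DKK2 on WNT5A and 0.169 in reverse by edgeR. That pair passed in both directions without clone P, which is second in both genes, where DKK2 on WNT5A was −1.04 (adjusted p = 0.00469 by edgeR). SFRP4 and WNT5A had adjusted p of 0.137 and 0.206 by edgeR in the 2 directions. Because SFRP4 splits the clones, its r is given inside the 12 higher clones only, at −0.19 with WNT5A (rho −0.22) and 0.13 with SFRP1 (rho 0.15). With WNT5A, WNT2B, SFRP1, SFRP2 or SFRP4 as covariate, 0 members passed by edgeR or limma. At an unadjusted p under 0.05 there were 1, 0, 2, 0 and 1 of 9 by edgeR and 3, 1, 2, 2 and 1 by limma.

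**Figure D3:**
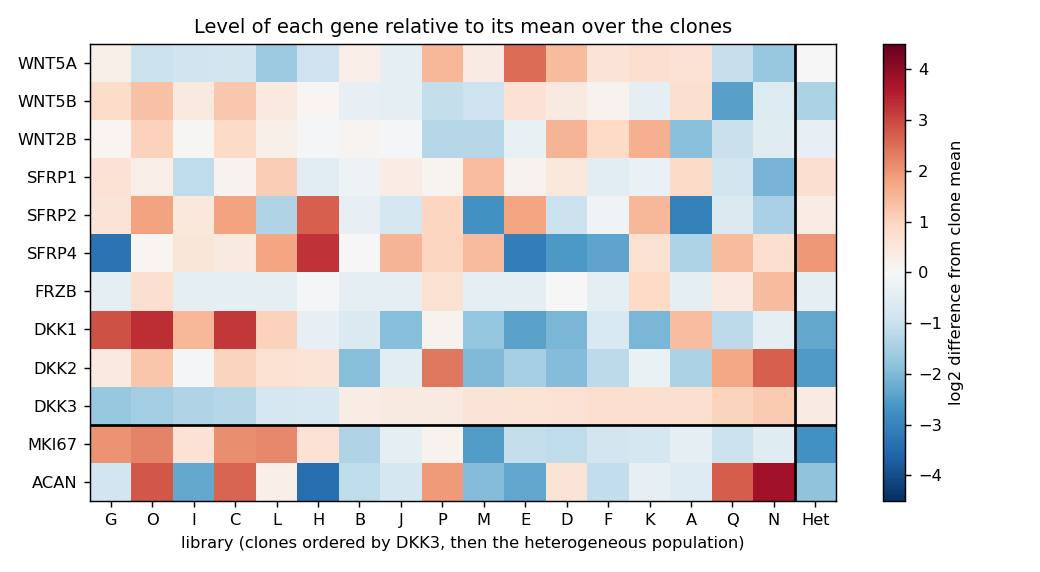
Log2 difference of each gene from its mean over the 17 clones, red for higher and blue for lower, with clones ordered from the lowest to the highest DKK3 and the heterogeneous population at the right. The 2 bottom rows show MKI67 and ACAN; DKK1 and MKI67 are red in clones G, O, I, C and L, on the side where DKK3 is blue.

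The proliferation marker MKI67 followed the same division. It ran from 21.7 CPM in clone M through 93.8 CPM to 593 CPM in clone O, and clones O, L, C and G, at 593, 560, 538 and 512 CPM, lay 1.39 log2 units above the other 13. The 6 clones lowest in DKK3 were the 6 highest in MKI67. The heterogeneous population had 18.6 CPM, under every clone. With MKI67 as covariate 35.7% of all genes passed, and 3 of 10 members did: DKK1 rose by 1.23 ± 0.17 per log2 unit (adjusted p = 2.4e-05 by edgeR), WNT5B rose by 0.35 ± 0.11 (adjusted p = 0.0200 by edgeR) and DKK3 fell by 0.60 ± 0.10 (adjusted p = 0.000159 by edgeR). WNT5A had a slope of −0.48 ± 0.19 (adjusted p = 0.0612 by edgeR). Within the 13 clones lower in MKI67, r was 0.60 for DKK1 (rho 0.62), −0.62 for DKK3 (rho −0.30) and 0.24 for WNT5B (rho 0.10). The WNT5B call was lost without clone C (adjusted p = 0.0550), without clone O (adjusted p = 0.0670) or with C and O summed (adjusted p = 0.0583), all by edgeR.

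When MKI67 was added to the fit as a second covariate, the relations that involve DKK1 passed no more. DKK3 on DKK1 was −0.10 ± 0.12 and DKK1 on DKK3 −0.24 ± 0.48, with adjusted p of 0.883 and 0.820 by edgeR, and 0% of all genes passed with DKK1 in that model. DKK1 on WNT5B was 0.50 ± 0.34 (adjusted p = 0.336 by edgeR). DKK2 and WNT5B, which did not pass without MKI67, were then opposed, at −1.55 ± 0.33 for DKK2 on WNT5B and −0.40 ± 0.09 in reverse (adjusted p = 0.0117 and 0.00461 by edgeR). In that model 12.2% of all genes passed with WNT5B and 26% with DKK2, so such a call was common. DKK1 and DKK3 each moved closely with MKI67, so the fit separates their slopes from it poorly. The SE of DKK1 on DKK3 was 0.27 without MKI67 and 0.48 with it. A lost call therefore does not show that a relation is absent. The fit with MKI67 was not repeated with clones left out or merged.

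**Figure D4:**
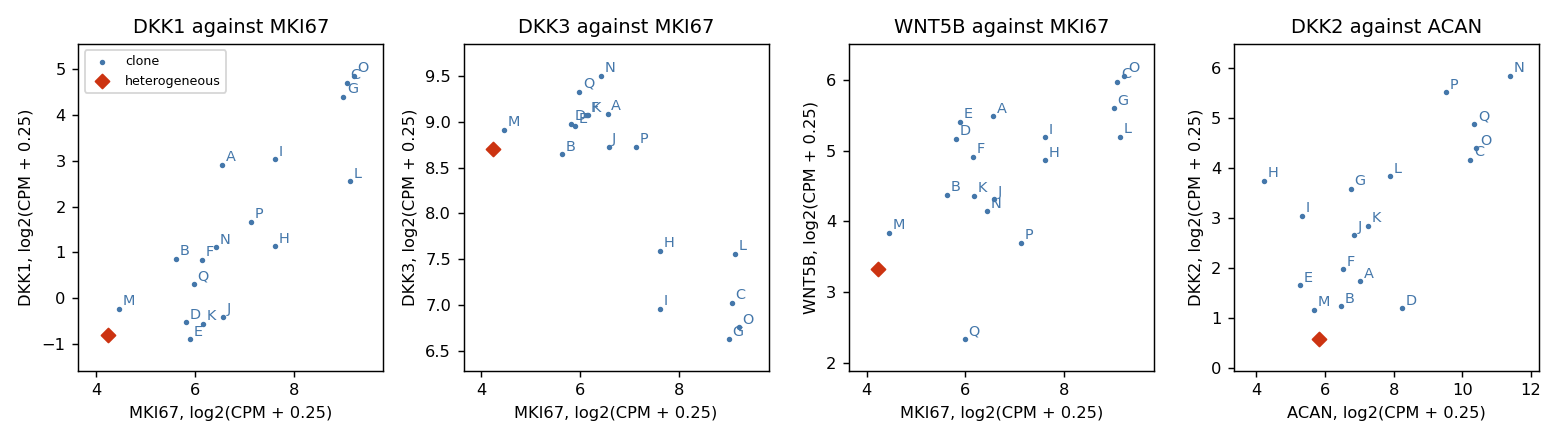
DKK1, DKK3 and WNT5B against MKI67, and DKK2 against ACAN, all as log2(CPM + 0.25), with each clone shown by its letter and the heterogeneous population as a red diamond. Clones G, C, L and O lie at the right in MKI67, with G, C and O highest in DKK1, and clones P, C, Q, O and N lie at the upper right for DKK2 and ACAN.

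Aggrecan, the main proteoglycan of cartilage, moved with DKK2. In the paper, ACAN of the undifferentiated clones was only weakly, and negatively, related to the cartilage matrix they formed later. That matrix was not among the values used here, so these levels do not show which clones form cartilage well. ACAN ran from 18.4 CPM in clone H through 130 CPM to 2667 CPM in clone N, and clones P, C, Q, O and N lay 1.30 log2 units above the other 12. These 5 were also the 5 highest in DKK2. With ACAN as covariate 5.74% of all genes passed, and 2 of 10 members did, DKK2 and FRZB. DKK2 rose by 0.43 ± 0.11 per log2 unit (adjusted p = 0.0241 by edgeR). The FRZB slope was 0.67 ± 0.19, a description only, since clone N is the highest in ACAN and the clone through which FRZB was kept. The DKK2 call was lost without clone N (adjusted p = 0.103) or clone E (adjusted p = 0.0526 by edgeR). Inside the 12 clones lower in ACAN, r with DKK2 was −0.12 (rho 0.01) and with FRZB 0.23 (rho 0.27). The DKK2 relation was thus not seen there, although cutting the clones on ACAN narrows its range, which itself lowers r.

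Other cartilage genes were higher with DKK2 as well. Of 9 genes of the chondrocyte list that could be tested, 7 passed as higher with DKK2 and 0 as lower, where 11% of all genes passed as higher. They were ACAN (0.93 ± 0.19 per log2 unit of DKK2), the cartilage collagens COL2A1 (1.07 ± 0.26), COL9A1 (1.40 ± 0.27) and COL9A2 (1.65 ± 0.35), the transcription factor SOX9 (0.54 ± 0.09), the matrix protein COMP (0.81 ± 0.23) and the link protein HAPLN1 (0.74 ± 0.12). COL11A1 (0.01 ± 0.08) and MATN3 (−0.08 ± 0.19) did not pass. With DKK1, 3 of 9 passed as higher, namely COL2A1, SOX9 and COL9A2, where 16.6% of all genes did. COL9A1 had a median of 0 reads over the clones and at most 23 in a clone, and the filter keeps a gene that is high in a single clone. Its slope is therefore a description only, although it is counted among the 7. The list contains ACAN, whose split of the clones matches the top of DKK2, and whether its other genes held inside the 12 clones was not tested.

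**Figure D5:**
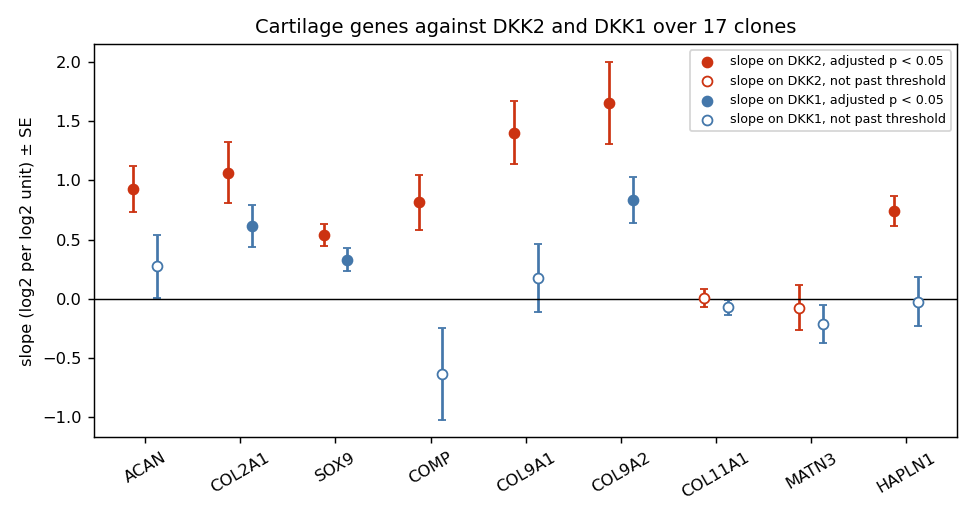
Slope of 9 cartilage genes on DKK2 (red) and DKK1 (blue) over the 17 clones, in log2 units per log2 unit with SE bars. Filled points passed an adjusted p of 0.05 by edgeR: 7 of 9 with DKK2 and 3 of 9 with DKK1.

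Receptors, transducers and targets of the pathway were read in the same fits. With DKK1 as covariate 26 of 76 pathway genes passed by edgeR, where 31.8% of all genes did. It was 24 with DKK3 (32.8% of all genes), 22 with DKK2 (20.5%) and 15 with WNT5B (22%). With FRZB 3 passed (2.64% of all genes) and with WNT5A 1 (0.468%). The counts with DKK1, DKK3 and WNT5B lay near the shares of all genes. With WNT2B, SFRP1, SFRP2 or SFRP4, 0 passed by edgeR (5, 19, 4 and 14 at an unadjusted p under 0.05), where 0.017%, 0.136%, 0% and 0% of all genes passed. With MKI67 itself 29 passed, where 35.7% of all genes did. With MKI67 as a second covariate, 0% of all genes passed with DKK1 and 0.672% with DKK3. The pathway slopes below are from fits without MKI67. Of 16 receptors tested, 4 were lower and 0 higher with DKK1, where 15.3% of all genes were lower, and 2 were higher and 0 lower with DKK3, where 17% were higher. FZD1, a receptor of the β-catenin branch, was among them, at −0.21 ± 0.04 per log2 unit of DKK1 and 0.40 ± 0.09 per unit of DKK3 (adjusted p = 0.00109 and 0.00282 by edgeR). CTNNB1 was lower with DKK1 (−0.13 ± 0.04) and DKK2 (−0.18 ± 0.05) and higher with DKK3 (0.29 ± 0.08).

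Of 13 targets tested, 4 were higher with DKK1 and 0 lower, where 16.6% of all genes were higher. With DKK3, 4 were lower and 0 higher, where 15.8% of all genes were lower. With WNT5B, 5 were higher and 0 lower, where 11.5% of all genes were higher. No test of these counts against all genes was made. MYC rose by 0.18 ± 0.05 per unit of WNT5B and fell by 0.17 ± 0.05 per unit of DKK3. The remaining WNT5B calls, named after their values were seen, were NOTUM (0.95 ± 0.16), WISP1 (0.79 ± 0.21), APCDD1 (0.48 ± 0.14) and TCF7 (0.52 ± 0.16), of which NOTUM and APCDD1 encode inhibitors of Wnt signalling. The sole call with WNT5A, also named after its value was seen, was NKD1, a feedback inhibitor (1.06 ± 0.22, adjusted p = 0.0417 by edgeR). Other ligands differed by covariate: WNT10B fell by 0.52 ± 0.06 and WNT9A fell by 0.47 ± 0.10 per unit of DKK2, and WNT9A fell by 0.29 ± 0.09 per unit of DKK1. KREMEN1 was lower with both DKK1 (−0.10 ± 0.03) and DKK2 (−0.15 ± 0.03). CCND1 rose by 0.20 ± 0.07 per unit of DKK2 (adjusted p = 0.0445 by edgeR). TWIST1 and NKD1 were lower and WISP2 higher with DKK2, so its targets were split 2 to 2, and these too were named after their values were seen.

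The genes most like each member over the clones were ranked by Pearson r among 11760 others, with clones as points, and these r carry no test. For DKK1 they were MAP2K3 (0.93), RNASEH2C (0.93) and VASN (0.92), and for DKK3 they included POLR3GL (0.93) and BCL2L2 (0.93), over clones that fall into separate sets. For DKK2 they were ZCCHC3, BTBD3 and RTKN (0.93 to 0.94). For WNT5B they were MICALCL, RNF19B and ACTG1 (0.91 to 0.92), the last a cytoplasmic actin. For WNT5A they were TRPT1 (0.87), LRRC20 (0.84) and POMGNT1 (0.82), and for WNT2B LRRC10B (0.82), FBLN1 (0.79) and GEMIN5 (0.79). SFRP1 was most like DAB2IP (0.86), MEX3D (0.85) and RAI1 (0.84), and SFRP4, whose clones also fall into separate sets, most like PDCD7 (0.84), TXNIP (0.80) and SNED1 (0.80). SFRP2 had the weakest partners, CSF1R (0.77), ALX1 (0.74) and SHROOM1 (0.74). CSF1R is a macrophage marker that ran from 0.181 to 1.49 CPM in the clones. FRZB was most like HSD11B1 (0.85), PROSER2 (0.84) and POU3F3 (0.84).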

How the data were processed

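The authors aligned 50-base single-end reads to bosTau7 with STAR 2.3.0e and used HTSeq to count reads per RefSeq gene. The deposited values are raw counts per gene without normalization. Each file also has 5 tally lines, left out. Reads outside genes were 18.8% to 26.8% of a library.

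Groups followed the clonality given in the labels. Levels are TMM-scaled CPM (edgeR 4.0.16, R 4.3.3), on the log2 scale after adding 0.25. Tests were edgeR quasi-likelihood fits with filterByExpr and Benjamini-Hochberg adjustment over all genes tested, for the heterogeneous population, each clone, and slopes on 12 covariate genes. The test of the heterogeneous population and the slope on DKK1 were tried on simulated data in which genes varied independently. The fits of each clone, the other slopes and the fit with MKI67 were not. Alternatives were DESeq2 1.42.0, limma 3.58.1, other scalings, filters and pseudocounts, and each clone left out. MKI67 as second covariate and the merging of C and O were chosen after seeing the data. At this depth 3 reads are 0.169 to 0.271 CPM, which covers counting error only. No label marks a library as a repeat, so p-values measure spread between clones of 1 donor, with C and O counted as 2 clones. The genes and lists were chosen with earlier results of these data known. Named pathway genes were those that passed in the heterogeneous population or a clone and the 2 with most reads in each list; further pathway genes were named after their values were seen. No sequence or coordinate is given, as the gene table used for symbols (all 10 matched) is of another assembly. The marker lists for bone and fat were also summed. The 3 genes most like each member by r were named, except 1 that is not reported here.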

Additional observations from a re-analysis of the deposited data

How the results depend on the processing

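DKK1 with DKK3, and MKI67 with DKK1 or DKK3, passed by limma, with library totals, another pseudocount or no filter, with the heterogeneous library added, with C and O merged and without each clone in turn, but DKK1 with DKK3 did not pass with MKI67 in the fit. The slope of DKK3 on DKK1 ran from −0.46 to −0.35 with 1 clone left out, and the number of pairs that passed from 2 to 4. The genes called in the heterogeneous population were 145 by edgeR, 89 by DESeq2 (78 higher, 11 lower) and 137 to 155 without 1 clone. Calls summed over the clones were 90 by edgeR, 464 by DESeq2 and 10 when adjusted over all clones together, and member calls were 0 by edgeR and 1 by DESeq2. DKK3 with WNT5B passed by limma (adjusted p = 0.0231) and with library totals (adjusted p = 0.0216, edgeR). Of uncalled values, some changed sign. SFRP2 in the heterogeneous population was 0.44 by limma. WNT5B on WNT5A was 0.0349 by limma and 0.0336 with C and O merged, and −0.142 to 0.0438 without 1 clone. WNT2B on WNT5A was −0.0481 by limma and −0.0808 to 0.222 without 1 clone. DKK3 on DKK2 was 0.00822 with library totals and 0.19 with MKI67 in the fit. Without 1 clone, SFRP4 on SFRP1 ran from −0.403 to 0.0527, SFRP4 on SFRP2 from −0.22 to 0.30 and FRZB on SFRP2 from −0.0184 to 0.167. The causes were not tested. FRZB could not be fitted without clone N. No paired analysis was possible because there is 1 heterogeneous library and no label matches a clone to it. Low counts limit FRZB, SFRP2, WNT2B and DKK1 most.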

Other observations

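The summed markers of bone, of fat and of cartilage in the heterogeneous population lay within the range of the clones. The 8 osteoblast genes summed to 366 to 1699 CPM in the clones and 519 CPM in the heterogeneous population, and the 8 adipocyte genes to 25.3 to 126 CPM and 50.8 CPM. The chondrocyte genes summed to 1755 to 8357 CPM and 3735 CPM, most of it COL11A1, although HAPLN1 alone, at 4.53 CPM, lay under the lowest clone at 5.31 CPM. Clone N, which held the highest DKK2, DKK3, FRZB and ACAN, also held the highest summed MSC, endothelial and adipocyte markers, at 5978, 8.49 and 126 CPM. Whether these levels are linked was not tested.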
